A study of Homo sapiens with 18 samples.

Results

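Open chromatin was examined around 6 genes whose products can carry growth signals past a blocked epidermal growth factor receptor (EGFR): the receptor tyrosine kinases MET, AXL, FGFR1, FGFR2 and FGFR3, and the fibroblast growth factor FGF2. The members were all regions within 50 kb of the hg19 gene bodies that carried a peak in any of 18 assay for transposase-accessible chromatin (ATAC-seq) libraries. They numbered 48 of the 79483 regions in the whole series, 15 at MET, 9 at AXL, 10 at FGFR1, 1 at FGFR2, 6 at FGFR3 and 7 at FGF2. ATAC-seq marks open DNA by letting a transposase insert adapters into it. All libraries came from PC9, an established human lung adenocarcinoma line with an activated EGFR, and the cells of every group had been frozen and thawed before the assay.

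The 6 groups held 3 libraries each, named a, b and c. The PC9 group was the unsorted population in vehicle (DMSO). DTP, drug-tolerant persisters, were the cells still alive after erlotinib, which blocks the EGFR kinase, had been applied at 1 µM for 8 days and renewed with the medium every 3 days. The 4 sorted groups received DMSO or 1 µM erlotinib for 12 h and were then separated by flow cytometry with Aldefluor, a dye that reports aldehyde dehydrogenase (ALDH) activity; the gates gave ALDH-low and ALDH-high cells. Sorting followed the treatment, so the fractions were defined by ALDH activity after drug or vehicle. Whether a, b and c were separate cultures, and whether both fractions of a treatment came from the same culture, is not said. Each p-value therefore reflects how much the libraries vary, and part of that may be technical. The deposited lists give no gene expression, so the labelled cell type was not checked against markers.

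MET binds hepatocyte growth factor, AXL binds GAS6, and the FGFR family binds fibroblast growth factors such as FGF2. Once active, each of these receptors can feed the RAS-ERK and PI3K-AKT pathways that EGFR normally drives in such tumours. MET amplification, AXL up-regulation and FGFR signalling are known routes of resistance to EGFR inhibitors in lung cancer. A region is called open in a library here when the authors' peak list holds a peak in it. A missing peak means only that none was called: read depth is unknown, and a site open in few cells and a site partly open in many cannot be told apart.

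The sequences that precede the gene starts are shown first, because these starts differed in how often they were called: the MET start was called in all 18 libraries, the AXL start in 4, the FGF2 start in 1, and the FGFR2 and FGFR3 starts in none. Each is the 250 bases before a RefSeq start (GRCh38.p14), on the gene's own strand, 5′ to 3′. The promoter table lists 2 starts for AXL and 5 for FGFR2, of which the most 5′ is shown. Calls at a start were counted at the 5′ end of the gene body only, and the other listed starts were not checked for calls. Capitals mark matches to 6 motifs searched on both strands, whose matches can overlap. The peaks are on hg19 and were not placed on these letters.
MET (plus strand): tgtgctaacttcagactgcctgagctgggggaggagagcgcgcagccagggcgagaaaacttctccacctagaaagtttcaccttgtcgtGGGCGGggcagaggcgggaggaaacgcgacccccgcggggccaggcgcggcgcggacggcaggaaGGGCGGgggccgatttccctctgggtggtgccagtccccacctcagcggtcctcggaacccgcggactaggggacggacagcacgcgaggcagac
AXL (plus strand): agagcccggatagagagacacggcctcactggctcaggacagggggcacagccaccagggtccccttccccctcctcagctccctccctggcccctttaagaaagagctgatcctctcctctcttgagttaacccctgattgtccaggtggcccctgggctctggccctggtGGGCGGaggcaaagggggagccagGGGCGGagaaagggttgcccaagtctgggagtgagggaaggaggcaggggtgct
FGFR2 (minus strand): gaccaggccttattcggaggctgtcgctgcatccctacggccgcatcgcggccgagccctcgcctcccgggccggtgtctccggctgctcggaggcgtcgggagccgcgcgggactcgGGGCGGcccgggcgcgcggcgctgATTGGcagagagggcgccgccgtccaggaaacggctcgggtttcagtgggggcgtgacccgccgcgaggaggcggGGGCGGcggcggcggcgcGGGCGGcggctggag
FGFR3 (plus strand): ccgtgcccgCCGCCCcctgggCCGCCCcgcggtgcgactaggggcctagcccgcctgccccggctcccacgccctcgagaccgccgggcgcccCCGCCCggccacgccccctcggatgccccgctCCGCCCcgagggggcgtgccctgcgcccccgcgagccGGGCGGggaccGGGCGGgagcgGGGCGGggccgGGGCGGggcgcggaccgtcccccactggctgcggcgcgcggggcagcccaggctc
FGF2 (plus strand): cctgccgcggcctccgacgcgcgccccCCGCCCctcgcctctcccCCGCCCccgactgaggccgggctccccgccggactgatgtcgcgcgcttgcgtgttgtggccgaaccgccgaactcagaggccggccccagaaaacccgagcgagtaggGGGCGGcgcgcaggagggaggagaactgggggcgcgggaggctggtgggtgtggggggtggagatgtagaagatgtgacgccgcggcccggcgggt
The motifs were the GC box GGGCGG, found in 42.6% of 34788 promoters of the same length, the AP-1 motif TGANTCA (6.59%), the CRE TGACGTCA (1.64%), the ETS motif CCGGAAG (8.5%), CCAAT (32.0%) and TATAAA (10.8%). The 5 sequences held only GC boxes, 2 at MET, 2 at AXL, 3 at FGFR2, 8 at FGFR3 and 3 at FGF2, and 1 CCAAT at FGFR2. CpG dinucleotides stood at 0.836 of the number that base composition predicts at MET, 1.12 at FGFR2, 0.855 at FGFR3 and 0.941 at FGF2, and at 0.155 at AXL (median of all promoters, 0.556). The second AXL start had a ratio of 0.744, and the 4 other FGFR2 starts had ratios of 0.393, 0.453, 0.267 and 0.265. No sequence is shown for FGFR1, whose start was called in all 18 libraries. A match is a description of the letters and not a bound site.

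Most of the 48 regions were called in some libraries and not in others. Of the 48, 8 (16.7%) were held by all 18 libraries and 7 (14.6%) by 1 library, against 17.7% and 21.2% of all 79483 regions. Those common to every library were the MET start and a region past the MET body, 2 regions at AXL, the FGFR1 start, 1 region at FGFR3 and 2 at FGF2. Lists ran from 26228 peaks in the shortest (ALDH-low, DMSO) to 45244 in the longest (DTP). A longer list can hold more regions at a locus, although it did not at every locus. Each comparison of calls between groups is therefore given beside the share of all regions called the same way. Each is given again after every list was cut to the length of the shortest, its 26225 peaks with the highest scores (lists of equal size). Tests of single regions used the full lists only.

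**Figure D1:**
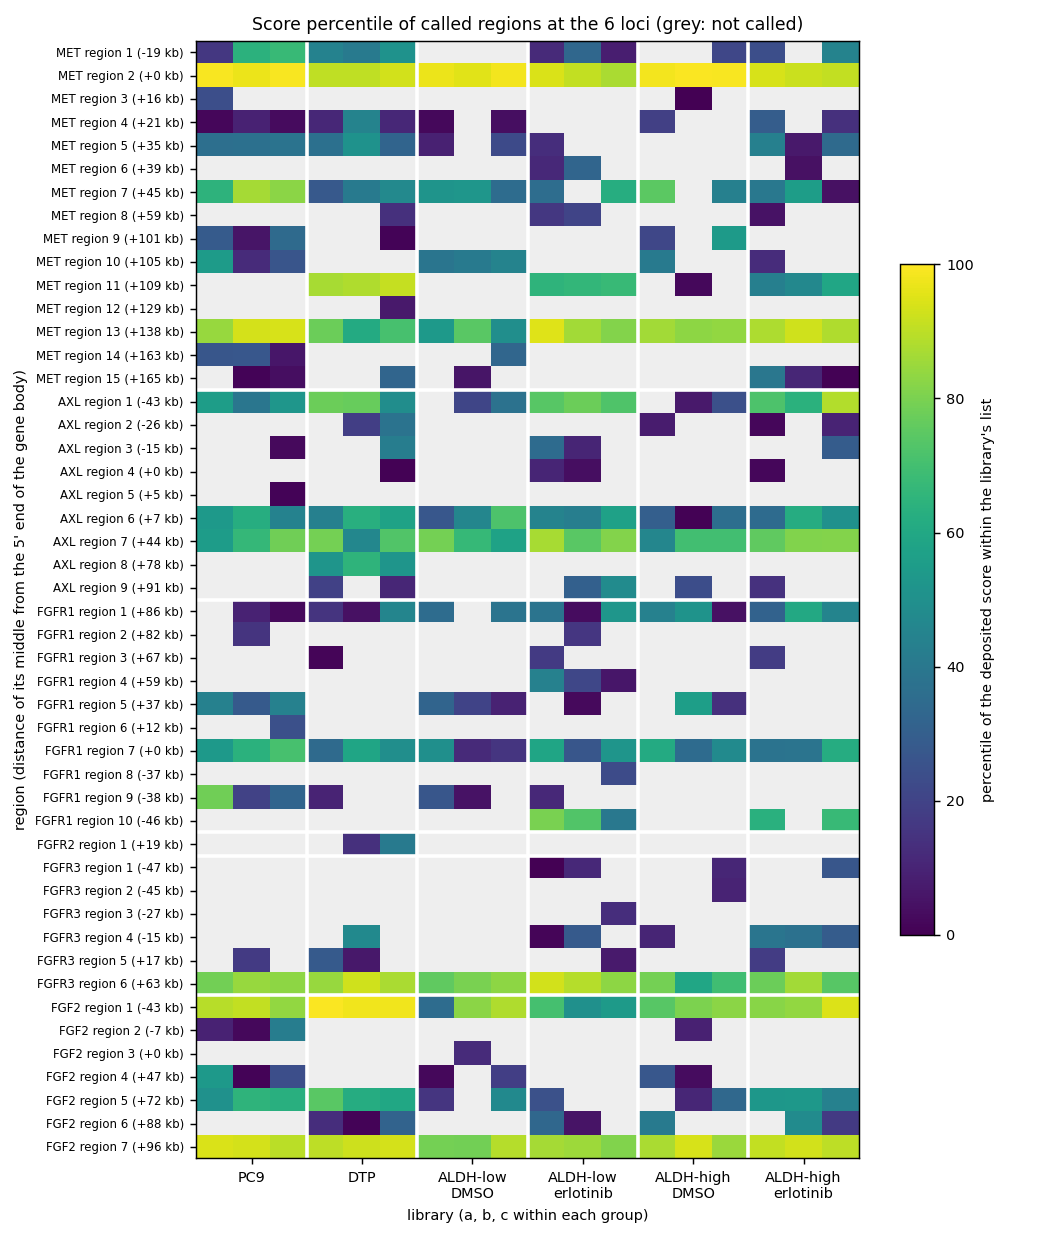
Rows are the 48 regions, labelled by gene and by the distance of their middle from the 5′ end of the gene body in kb, and columns are the 18 libraries in 6 groups. Colour is the percentile of the deposited score within the library's own list (0 to 100), and grey is no call: the MET start is bright in every library, and MET region 11 is called in all 9 erlotinib-exposed libraries and in 1 of the other 9.

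Gained means held by each of the 3 libraries of the first group and by none of the second, and lost means the opposite. In DTP against PC9, 3 of the 40 regions held by either group were gained (7.5%, against 6.75% of all regions), at MET, AXL and FGF2. In the same comparison 5 of 40 were lost (12.5%, against 3.68%), 2 at MET, 1 at FGFR1 and 2 at FGF2. In lists of equal size 2 of 24 were gained (8.33%, against 5.47%) and 0 were lost, where 5.03% of all regions were. For each of the 5 losses, at least 1 PC9 library had its peak outside the 26225 highest-scoring ones.

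After 12 h of erlotinib, ALDH-low cells gained 4 of 38 regions (against 6.82% of all regions), 2 at MET and 2 at FGFR1, and lost 1 at MET (2.63%, against 0.887%). With equal lists they gained 2 of 29 (6.90%, against 3.39%) and lost 2 (6.90%, against 2.76%). ALDH-high cells gained 2 of 36, both at MET (5.56%, against 4.52%), and lost 0, where 0.998% of all regions were lost. Equal lists gave 1 gain of 24 (4.17%, against 3.01%) and 0 losses (2.42% of all regions). No member separated all 6 erlotinib libraries from all 6 DMSO libraries of sorted cells (0 of 43 in either direction, against 1.55% gained and 0.16% lost). Among equal lists 1 of 31 did, as a gain (3.23%, against 0.941%), and 0 as a loss (against 0.691%).

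Few regions were gained or lost between the ALDH fractions, among the members as among all regions. Under DMSO, 0 of 32 were gained or lost in ALDH-high against ALDH-low cells, where 1.28% and 0.14% of all regions were. Under erlotinib 1 of 36 was gained, at MET (2.78%, against 0.893%), and 1 was lost, at FGFR1 (2.78%, against 0.446%). With equal lists 0 of 25 were gained or lost under DMSO (against 0.517% and 0.424%). Under erlotinib 1 of 23 was then gained (4.35%, against 0.842%), and it was another region, FGF2 region 5. None of the 23 was lost (against 0.663%). These shares rest on 1 to 5 regions each, and a test of a single region with 3 against 3 libraries cannot go below an exact p of 0.1.

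The 12 sorted libraries allow one, by an exact conditional permutation test of each region's calls, with treatment labels permuted within fractions. It used the full lists, and in each fraction every erlotinib list was longer than every DMSO list. The part of list length was not tested. Calls varied in 49808 regions, 35 of them members, and 3135 had an unadjusted exact p under 0.05, 2775 higher and 360 lower with erlotinib. They included 2 members, MET region 11 and FGFR1 region 10. No region passed after Benjamini-Hochberg adjustment over all 49808 (smallest adjusted exact permutation p = 0.226). Adjusted only over the 6480 regions whose numbers of calls could reach an exact p under 0.05, an alternative chosen after seeing the data, all 3135 passed and so did both members. For ALDH-high against ALDH-low, 108 of 48717 varying regions had an unadjusted exact p under 0.05, none of them a member, and none passed adjustment (smallest adjusted exact permutation p = 1).

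MET encodes the hepatocyte growth factor receptor. Its start region (chromosome 7, 116311375 to 116313537) ranked near the top of every list. The score percentile, the share of a library's peaks with a lower deposited score, was 99, 97.3 and 99.1 in PC9 and 90.5, 90.5 and 93.3 in DTP. It was 97.2, 95.3 and 98.4 in ALDH-low DMSO cells and 94.3, 90.9 and 87.4 after erlotinib. In ALDH-high cells it was 98.3, 99.2 and 98.9 under DMSO and 94.0, 92.2 and 90.7 after erlotinib.

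In each of these pairs every erlotinib-exposed library stood lower, and the groups did not overlap. With equal lists the 9 libraries without erlotinib lay at the 95.3rd percentile or above, and the 9 exposed ones at the 91.1st or below. Of the 11052 regions held in all 18 equal lists, 1.35% were ordered this way and 0.724% in the opposite way; of the 6 members among them, the MET start was ordered this way and 0 the opposite way. For DTP against PC9 alone, 2 of these 6 lay lower in every DTP library (17.5% of all such regions) and 1 higher (17.2%). A lower rank does not mean a lower signal at MET, since other peaks can rank higher, and the called width was not smaller: 1.81 ± 0.0678 kb in PC9 and 1.91 ± 0.0941 kb in DTP (mean ± SD, n = 3 libraries).

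Deep inside the MET body, 2 neighbouring regions were called in opposite groups. Region 11 (chromosome 7, 116420430 to 116421755) lies 108 to 110 kb past the 5′ end. It was called in no PC9 library and in all 3 of DTP, at percentiles 86.8, 88.0 and 91.4. It was called in no ALDH-low DMSO library and in all 3 after erlotinib, at 65.2, 66.1 and 67.5. In ALDH-high cells it was called in 1 DMSO library, b, at percentile 2.20, and in all 3 erlotinib libraries at 43.1, 46.6 and 59.2. Every erlotinib-exposed library thus held it.

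In lists of equal size region 11 was held by the 9 exposed libraries and by none of the other 9. It ranked at 78.7, 79.5 and 85.1 in DTP, at 46.0, 52.8 and 59.7 in ALDH-low erlotinib and at 11.6, 30.1 and 36.9 in ALDH-high erlotinib cells. These 3 groups did not overlap, with DTP highest and ALDH-high lowest. How many of all regions had this order was not counted. Gains in all 3 erlotinib comparisons at once, which have separate controls, were found in 0.259% of regions in equal lists (losses, 0.22%), and region 11 was the 1 such member of 34, with 0 lost. In the full lists 0.403% of all regions were gained in all 3 and 0.0327% lost, and 0 of 48 members were either. Its exact permutation p in the sorted libraries was 0.02 (called in 6 of 6 erlotinib and 1 of 6 DMSO libraries). Adjusted over all varying regions it was 0.318, and over the restricted set 0.0413.

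Region 10 (chromosome 7, 116416289 to 116418106) ends 2323 bases before region 11. It was called in all 3 PC9 libraries, at percentiles 54.7, 12.1 and 26.3, and in no DTP library. It was called in all 3 ALDH-low DMSO libraries, at 39.0, 40.7 and 44.8, and in none after erlotinib. ALDH-high cells did not show this split: library a held it under DMSO (41.0) and under erlotinib (12.9), and no other library did. Its exact permutation p over both fractions was 0.26 (adjusted over all varying regions, 1). Without exon annotation of hg19, whether regions 10 and 11 lie in introns was not examined.

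**Figure D2:**
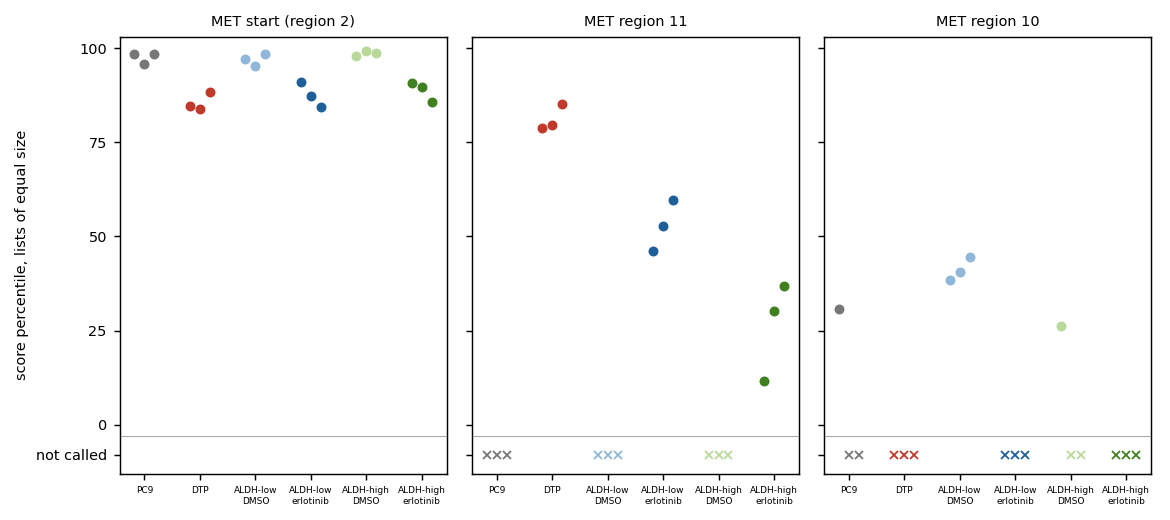
The 3 panels give the score percentile in lists of equal size (0 to 100) of the MET start, region 11 and region 10, with 1 point per library and a cross below the line where a library has no call. The start lies at 95.3 or above in the 9 libraries without erlotinib and at 91.1 or below in the others, and region 11 is called in the 9 exposed libraries alone.

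Other MET regions showed weaker separations. Region 1 (chromosome 7, 116292780 to 116293986), 18 to 19 kb before the 5′ end, was held by all 6 PC9 and DTP libraries. It was held by no ALDH-low DMSO library and by all 3 after erlotinib at percentiles 11.9, 33.5 and 8.57, by 1 ALDH-high DMSO and by 2 ALDH-high erlotinib libraries. Region 5, 34 to 35 kb into the body, was gained with erlotinib in ALDH-high cells (percentiles 43.4, 6.94 and 34.6) but was also held by all 6 PC9 and DTP libraries and by 2 ALDH-low DMSO libraries. Region 15, at 165 kb, was gained in the same comparison and against ALDH-low erlotinib cells, at percentiles 39.7, 10.7 and 0.605. It was also held by PC9 b and c at 1.08 and 3.62, by DTP c at 32.4 and by ALDH-low DMSO b at 5.58. Region 14, at 163 to 164 kb, was lost in DTP from percentiles 26.8, 27.3 and 5.94 in PC9, and 1 further library, ALDH-low DMSO c, held it. Regions 14 and 15 lie past the MET body, on the side of CAPZA2, an actin-capping subunit gene, as does region 13 (137.5 to 139.3 kb), which all 18 libraries held.

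**Figure D3:**
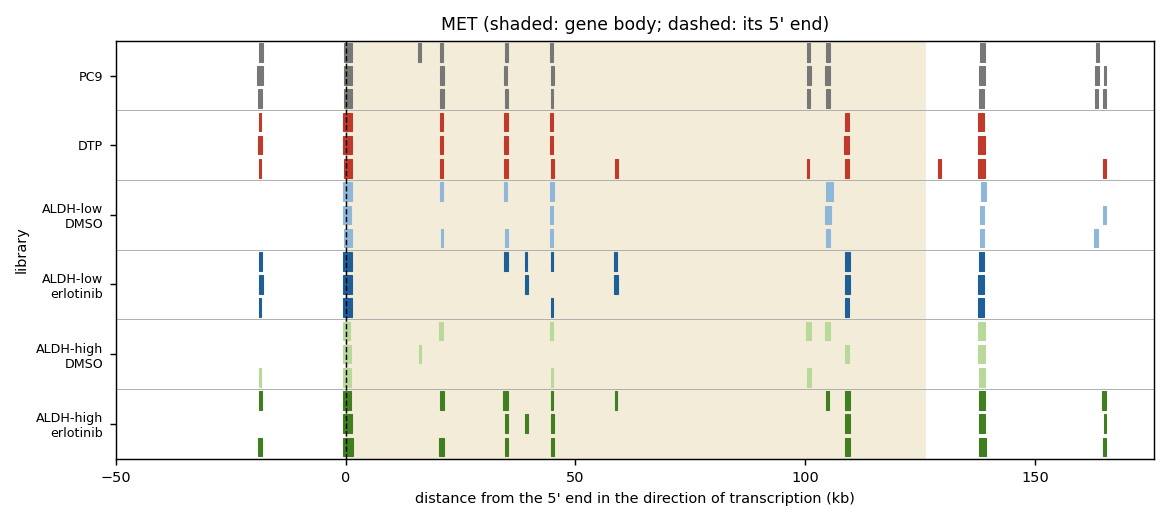
Each row is a library and each bar a called peak, placed by its distance in kb from the 5′ end of the MET body in the direction of transcription. Shading is the gene body and the dashed line its 5′ end: bars at 0 occur in all 18 rows, those of region 11, at 108 to 110 kb, in the exposed rows and 1 DMSO row, and those of region 10 just before it in 8 rows.

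Called bases in the whole MET window of 226 kb overlapped between PC9 and DTP. They were 8.61, 9.33 and 8.55 kb in PC9 and 6.90, 7.37 and 8.94 kb in DTP (difference −1.09 kb, exact permutation p = 0.3). The value changed with the scale: per 100 Mb called the groups did not overlap, at 22.9, 24.8 and 22.2 kb in PC9 and 16.4, 17.2 and 20.6 kb in DTP (difference −5.22 kb, exact permutation p = 0.1, the smallest possible). With equal lists the sign turned, to 0.223 kb (exact permutation p = 0.5), as it did with scores of at least 100, to 1.04 kb (exact permutation p = 0.2).

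In ALDH-high cells the MET window held 6.87, 4.59 and 5.11 kb under DMSO and 9.27, 7.22 and 8.19 kb after erlotinib, without overlap (difference 2.70 kb, exact permutation p = 0.1, the smallest possible). In ALDH-low cells it held 6.93, 5.10 and 6.19 kb under DMSO and 7.05, 6.91 and 5.04 kb after erlotinib, which overlap (difference 0.260 kb, exact permutation p = 0.8). After erlotinib every ALDH-high library thus lay above every ALDH-low library (difference 1.90 kb, exact permutation p = 0.1). Over both fractions the means were 5.80 kb under DMSO and 7.28 kb after erlotinib (exact permutation p = 0.065). All called bases rose too, from 31.5 to 42.3 Mb (exact permutation p = 0.005, the smallest possible), and per 100 Mb called the MET difference was −1.41 kb (exact permutation p = 0.485). With equal lists it was 0.00417 kb (exact permutation p = 0.99).

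AXL encodes a receptor of the TAM family that recognises GAS6 and dying cells. Its start region (chromosome 19, 41724541 to 41725586) was called weakly and in 4 libraries: DTP c at percentile 0.641, ALDH-low erlotinib a and b at 10.4 and 3.52, and ALDH-high erlotinib a at 1.85. All 4 had been exposed to erlotinib, and 5 other exposed libraries had no call. The exact permutation p in the sorted libraries was 0.2, and no list of equal size held the start. The main open site of the body was region 6 (chromosome 19, 41731157 to 41732890), 6.2 to 7.9 kb in, which all 18 libraries held. It lay at percentiles 53.9, 62.4 and 44.5 in PC9 and 43.4, 62.9 and 57.7 in DTP, which overlap. Region 1 (chromosome 19, 41681393 to 41682975), 42 to 44 kb upstream, had no call in DMSO library a of either fraction. Its percentiles in ALDH-low cells were 20.7 and 37.5 under DMSO and 73.9, 77.6 and 72.5 after erlotinib. In ALDH-high cells they were 6.77 and 24.4 against 72.2, 63.7 and 88.5. PC9 (55.5, 39.4 and 52.6) and DTP (77.6, 76.7 and 49.1) overlapped. The share of all regions ordered so was not counted. Regions 1 and 6 of AXL and region 13 of MET were chosen for mention after their values were seen.

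The gained AXL region in DTP was region 8 (chromosome 19, 41802015 to 41803195), 77 to 78 kb past the AXL start and outside its body. It was called in the 3 DTP libraries alone, at percentiles 52.3, 65.1 and 52.1, and in none of the 15 others. With equal lists it kept all 3 calls, at 23.3, 40.3 and 17.4. It lies on the side of HNRNPUL1 and CCDC97, so it is not assigned to AXL. Region 7 (chromosome 19, 41767873 to 41771090), over the end of the AXL body, had the highest median percentile at this locus (73.6) and was held by all 18.

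The AXL window of 143 kb had more called bases in persisters and after 12 h of drug. They were 4.64, 3.56 and 4.75 kb in PC9 and 6.58, 7.01 and 7.81 kb in DTP, without overlap (difference 2.82 kb, exact permutation p = 0.1, the smallest possible). In ALDH-low cells they were 2.64, 3.40 and 3.73 kb under DMSO and 6.37, 8.24 and 5.50 kb after erlotinib, again without overlap. In ALDH-high cells they were 3.67, 4.29 and 3.27 kb under DMSO and 6.71, 3.84 and 6.92 kb after erlotinib, where library b lay within the DMSO range. Over both fractions the difference was 2.76 kb (3.50 against 6.26 kb, exact permutation p = 0.01), per 100 Mb called 3.65 kb (exact permutation p = 0.03), and with equal lists 1.83 kb (exact permutation p = 0.01). Exchanging only libraries with the same letter, the exact permutation p was 0.0625.

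Most of the added AXL bases lay outside the gene body. The 3 downstream regions held 1.4 ± 0.482 kb in PC9 and 3.80 ± 0.582 kb in DTP (mean ± SD, n = 3), while the 2 regions inside the body held 1.81 ± 0.490 and 1.36 ± 0.115 kb. In ALDH-low cells the downstream regions went from 1.45 ± 0.0862 to 2.99 ± 1.10 kb with erlotinib, and the upstream ones from 0.632 ± 0.574 to 1.68 ± 0.521 kb. In ALDH-high cells the same 2 sums went from 1.72 ± 0.825 to 2.26 ± 1.06 kb and from 0.881 ± 0.0978 to 1.98 ± 0.630 kb.

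**Figure D4:**
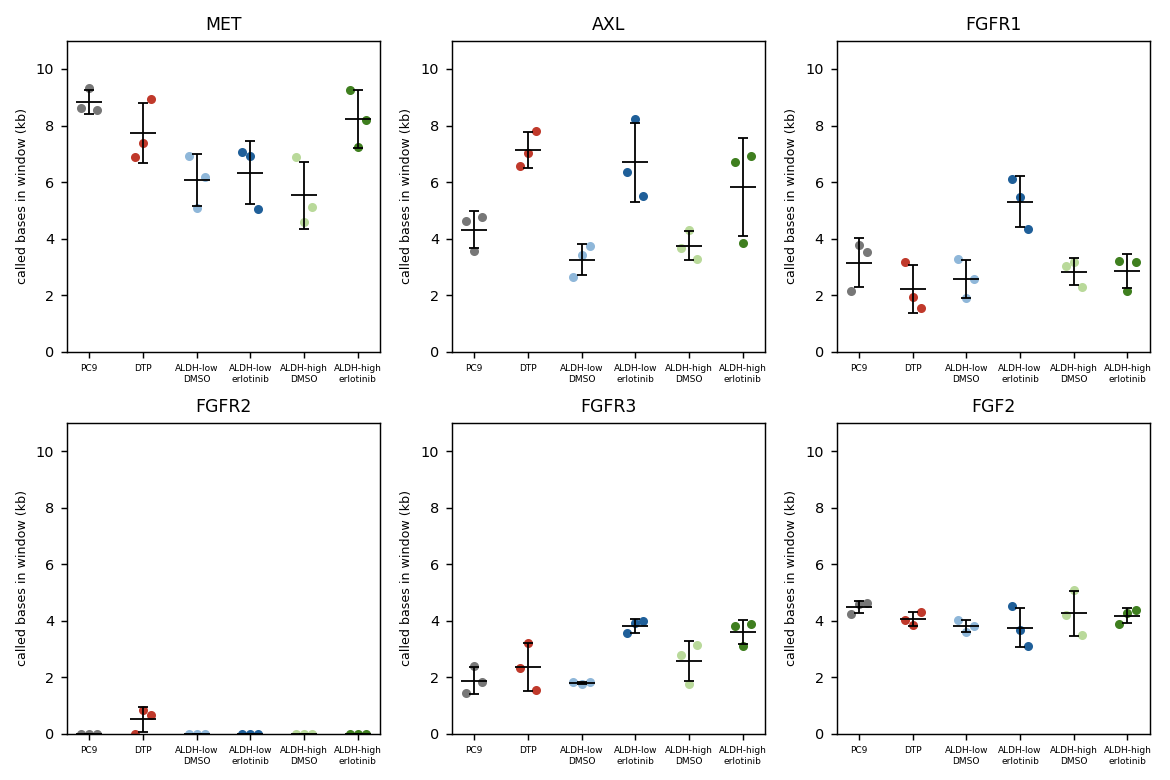
The 6 panels give called bases in kb within each gene's window (body and 50 kb on each side), with 1 point per library, and lines at the mean ± SD of the 3 libraries. AXL and FGFR3 have higher means with erlotinib in both sorted fractions, but their libraries overlap in ALDH-high cells. FGFR1 stands out in ALDH-low erlotinib cells, and FGFR2 is at 0 outside DTP.

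FGFR1 encodes the fibroblast growth factor receptor best known for signalling in mesenchymal cells. Its start region (chromosome 8, 38324968 to 38326682) was held by all 18 libraries at middle ranks, with percentiles 53.6, 63.9 and 70.7 in PC9 and 34.7, 58.8 and 49.2 in DTP, which overlap. It lay at 49.8, 11.9 and 15.5 in ALDH-low DMSO and 58.8, 26.7 and 52.3 in ALDH-low erlotinib cells. In ALDH-high cells it lay at 61.0, 34.8 and 47.7 under DMSO and 38.0, 38.4 and 61.9 after erlotinib. PC9 and DTP, and DMSO and erlotinib within each fraction, overlapped at this start.

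Before the FGFR1 start, region 10 (chromosome 8, 38371118 to 38372161), 45 to 46 kb upstream on the side of TACC1, was called after 12 h of erlotinib alone. Its percentiles were 79.7, 72.7 and 40.1 in the ALDH-low libraries, and 63.4 and 67.3 in libraries a and c of ALDH-high cells. No PC9, DTP or DMSO library held it. The exact permutation p was 0.02 (5 of 6 erlotinib and 0 of 6 DMSO libraries), with the same adjusted values as MET region 11. It was gained in ALDH-low cells, and in equal lists too, at 68.5, 62.0 and 25.6.

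Inside the FGFR1 body, region 5 (chromosome 8, 38288369 to 38289243), 37 to 38 kb in, was called mostly in libraries without erlotinib. PC9 held it at percentiles 44.1, 28.5 and 43.9 and no DTP library did. Among sorted cells, the ALDH-low DMSO libraries held it at 32.2, 20.2 and 9.49 and ALDH-high DMSO libraries b and c at 56.2 and 13.7, against 1 erlotinib library, ALDH-low b, at 2.61. The exact permutation p was 0.08, and in equal lists region 5 was lost in ALDH-low cells. Region 4, 58 to 60 kb from the start and past the body, was called only in ALDH-low erlotinib cells, at 43.8, 21.5 and 6.16, and in 1 of these libraries, a, in equal lists.

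Called bases at FGFR1 were highest in ALDH-low erlotinib cells, at 6.12, 5.46 and 4.33 kb, against 3.26, 1.91 and 2.56 kb in ALDH-low DMSO cells. ALDH-high cells had 3.03, 3.19 and 2.28 kb under DMSO and 3.21, 2.15 and 3.16 kb after erlotinib. The ALDH-low erlotinib libraries lay above every other library, and the remaining groups overlapped. The erlotinib difference was 2.72 kb in ALDH-low and 0.00567 kb in ALDH-high cells, and these differed by −2.718 kb (exact permutation p = 0.035). Per 100 Mb called the exact permutation p of that difference was 0.075. Both tests permuted fraction labels within treatments, which assumes no fraction difference under either treatment, so neither p is specific to unequal erlotinib differences. Over both fractions the erlotinib difference was 1.36 kb (exact permutation p = 0.05), per 100 Mb called 1.01 kb (exact permutation p = 0.42), and with equal lists 0.283 kb (exact permutation p = 0.695). PC9 and DTP overlapped, at 2.15, 3.77 and 3.53 kb against 3.17, 1.93 and 1.55 kb (exact permutation p = 0.2).

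FGFR2, a receptor whose isoforms divide between epithelial and mesenchymal cells, was almost without peaks in a window of 220 kb. A single region, 18 to 19 kb into the body (chromosome 10, 123338971 to 123339816), was called in DTP b and c, at percentiles 13.8 and 41.3. DTP a and the other 15 libraries had no call at this locus, and no list of equal size held it. Called bases were 0, 0.845 and 0.679 kb in DTP and 0 in PC9 (exact permutation p = 0.4).

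FGFR3, the family member known for growth plate control and for mutations in bladder cancer, had no call at its start or in its body of 16 kb in any library. The 6 regions in its window of 116 kb lay outside the body, 4 upstream on the side of TACC3 and 2 downstream on the side of LETM1. Region 6 (chromosome 4, 1857124 to 1859177) was held by all 18 libraries, at a median percentile of 83.0. Called bases were 1.83, 1.77 and 1.83 kb in ALDH-low DMSO and 3.55, 3.93 and 4.01 kb in ALDH-low erlotinib cells, without overlap. In ALDH-high cells they were 2.80, 1.78 and 3.15 kb under DMSO and 3.80, 3.12 and 3.89 kb after erlotinib, where 1 DMSO library lay above the lowest erlotinib library.

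Over both fractions the FGFR3 difference was 1.52 kb (exact permutation p = 0.01), and per 100 Mb called 1.94 kb (exact permutation p = 0.04). With equal lists the difference was 0.596 kb and no longer passed (exact permutation p = 0.115). Upstream regions held 0 against 1.79 ± 0.388 kb in ALDH-low and 0.836 ± 0.783 against 1.52 ± 0.492 kb in ALDH-high cells (DMSO against erlotinib, mean ± SD, n = 3). Downstream regions held 1.81 ± 0.0363 against 2.04 ± 0.570 kb and 1.74 ± 0.127 against 2.09 ± 0.337 kb. Within 10 kb of the body the difference was 0.284 kb (exact permutation p = 0.5). Region 4, 14 to 16 kb upstream and chosen after its values were seen, was called in 5 of 6 erlotinib and 1 of 6 DMSO libraries (exact permutation p = 0.08). PC9 had 1.43, 2.39 and 1.82 kb and DTP 2.32, 3.22 and 1.54 kb, which overlap (exact permutation p = 0.5).

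FGF2, a ligand of these FGF receptors, had no call at its start in 17 of 18 libraries: its start region (chromosome 4, 123747783 to 123748554) was called in ALDH-low DMSO b alone, at percentile 12.3. The regions lost in DTP lay near it and inside the gene. Region 2, 6 to 7 kb before the start, was held at percentiles 9.59, 2.32 and 42.3 in PC9, at 9.33 in ALDH-high DMSO b and in no other library. Region 4 (chromosome 4, 123794804 to 123795868), 47 to 48 kb into the body, was held at 53.7, 1.14 and 23.8 in PC9, at 2.13 and 18.6 in ALDH-low DMSO a and c, and at 27.2 and 3.30 in ALDH-high DMSO a and b. None of the 9 erlotinib-exposed libraries held region 4, and its exact permutation p in the sorted libraries was 0.08. The share of all regions with such a pattern was not counted. In equal lists 1 PC9 library still held region 4, so it was not called lost there.

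Region 6 of FGF2, 87 to 88 kb from the start and past the body, was gained in DTP at the low percentiles of 12.9, 0.982 and 31.9, and no equal list of DTP held it. It was also called in 2 libraries of each sorted erlotinib group and in ALDH-high DMSO a (exact permutation p = 0.26). Region 5 (chromosome 4, 123819290 to 123820305), just past the body, was gained in ALDH-high against ALDH-low erlotinib cells in equal lists, at percentiles 26.8, 39.0 and 13.2. In equal lists it was also held by all 6 PC9 and DTP libraries, by ALDH-low DMSO a and c and by ALDH-high DMSO c. The strongest region was region 7 (chromosome 4, 123842768 to 123844949), at a median percentile of 89.7 in all 18 libraries. It lay 95 to 97 kb past the start, on the side of AFG2A and of NUDT6, which overlaps FGF2 itself. On the other side, region 1 (chromosome 4, 123703971 to 123705322), 43 to 44 kb upstream and chosen after its values were seen, lay at 89.1, 90.7 and 84.0 in PC9 and 99.4, 97.9 and 97.7 in DTP. It is the member ranked higher in every DTP library in equal lists, at 99.1, 96.4 and 96.1 against 83.4, 86.1 and 74.4.

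**Figure D5:**
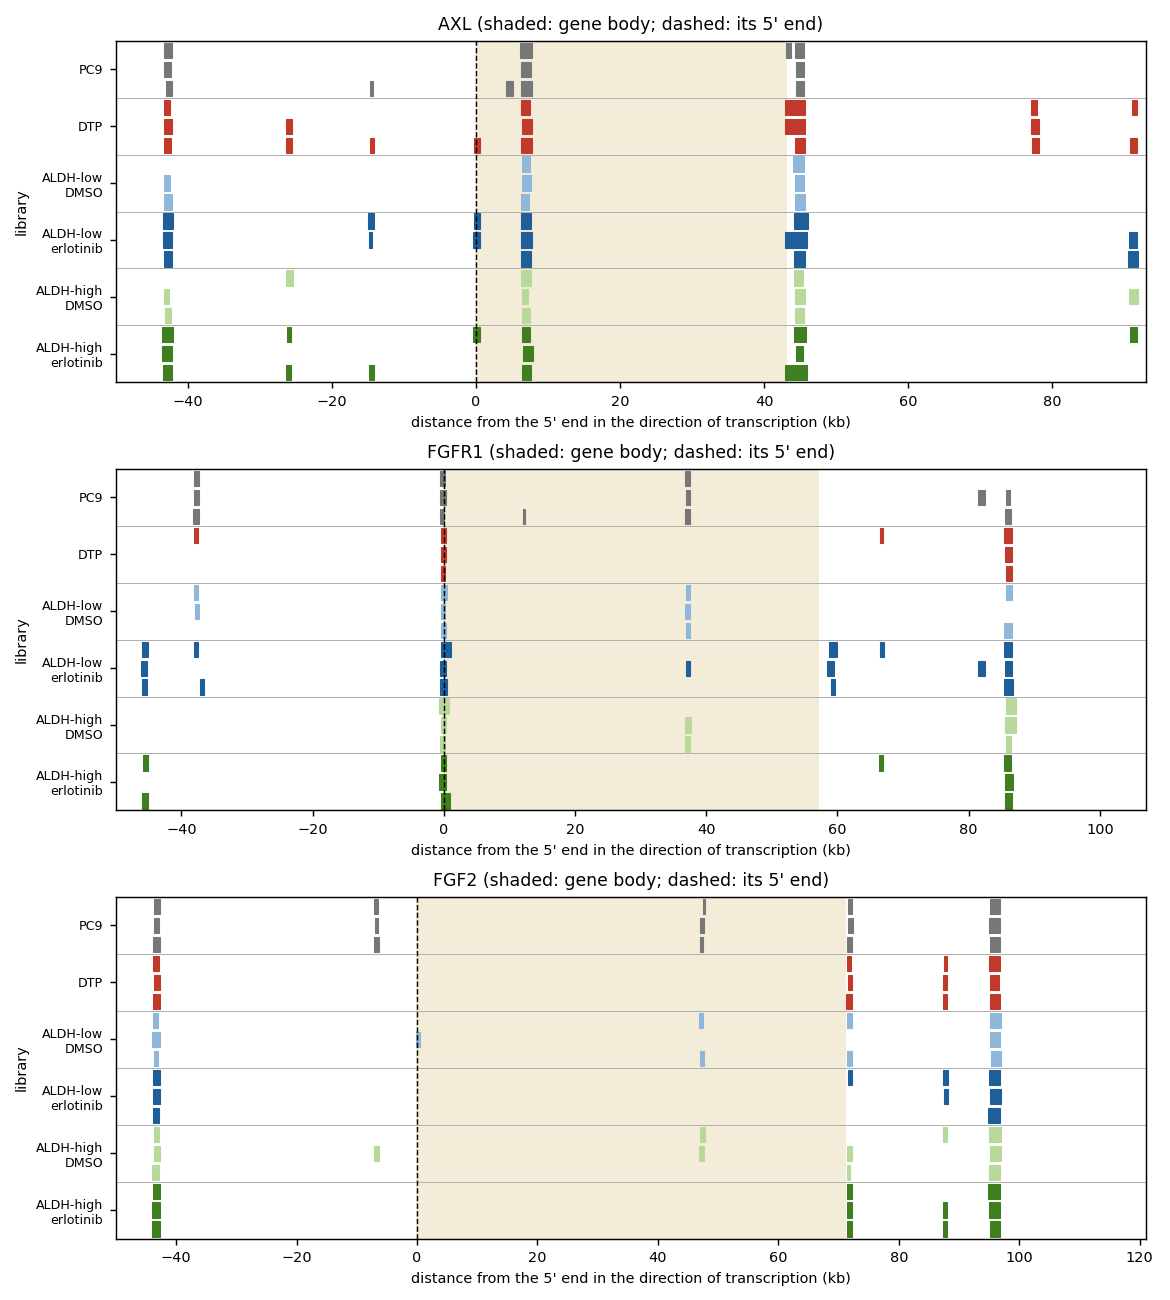
Each row is a library and each bar a called peak at AXL, FGFR1 and FGF2, placed by its distance in kb from the 5′ end of the gene body in the direction of transcription, with the body shaded. Bars near 78 kb at AXL occur in the 3 DTP rows alone, bars near 46 kb upstream of FGFR1 in 5 sorted erlotinib rows, and bars near 47 kb inside FGF2 in rows without erlotinib.

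In kb, called bases in the whole FGF2 window overlapped between PC9 and DTP, and between DMSO and erlotinib within each fraction. They were 4.23, 4.59 and 4.64 kb in PC9 and 4.04, 3.84 and 4.31 kb in DTP (exact permutation p = 0.2). Per 100 Mb called PC9 and DTP did not overlap, at 11.2, 12.2 and 12.0 kb against 9.60, 8.93 and 9.94 kb. That difference was −2.32 kb (exact permutation p = 0.1, the smallest possible). In sorted cells called bases were 4.05 kb under DMSO and 3.97 kb after erlotinib (exact permutation p = 0.825). Because all called bases rose with erlotinib, the FGF2 value per 100 Mb was lower by a difference of −3.48 kb (exact permutation p = 0.01). Within 10 kb of the body the erlotinib difference in called bases was −0.764 kb (exact permutation p = 0.04). The difference of DTP from PC9 was −1.10 kb there (exact permutation p = 0.1).

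Between the ALDH fractions, called bases differed by 0.675 kb at MET (exact permutation p = 0.365), −0.198 kb at AXL (exact permutation p = 0.785), −1.10 kb at FGFR1 (exact permutation p = 0.095), 0.272 kb at FGFR3 (exact permutation p = 0.345) and 0.433 kb at FGF2 (exact permutation p = 0.2), each as ALDH-high minus ALDH-low over both treatments. None of the 5 passed 0.05. Called bases were compared in 3 ways at 6 loci, except that FGFR2 had no called base in sorted cells and hence no test there. The values within fractions, between the fractions' erlotinib differences and per 100 Mb called are further tests of the same data, and no p was adjusted over any of them.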

How the data were processed

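One peak list per library, called separately, was used for 18 ATAC-seq libraries in 6 groups of 3. Per the submitters' processing notes, BWA, MACS 1.4.2 and hg19 were used. How reads were trimmed, shifted and deduplicated, and the calling parameters, were not stated in the sources used here. Read depth is unknown. Each peak carries a deposited score from the authors' caller, whose scale is unstated and whose lowest value was 70, so scores only ranked or filtered peaks within a list. Peaks on chromosomes 1 to 22 and X sharing at least 1 bp were merged into 79483 regions (the same as with bedtools 2.31.1), and 3 to 7 peaks per list lay elsewhere. Gene bodies were taken to the nearest kb. A start region lies within 1 kb of the 5′ end, and other regions were placed by their middle. Neighbouring genes were named from RefSeq (GRCh38.p14).

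Tests were exact two-sided permutation tests in Python 3.11.15 with numpy 2.4.6, over 20 assignments for 3 against 3 libraries (smallest p 0.1) and 400 for the 12 sorted libraries (smallest p 0.005). The single-region test was run on simulated data in which all libraries shared each unchanged region's call rate, so differing list lengths were not covered. The genes and lists were chosen with earlier results of these data known. The named regions are those at gene starts, the one with the highest median percentile per locus, those gained or lost, and those with an unadjusted exact p under 0.05. Order of percentiles in equal lists, and calls shared by all 3 erlotinib comparisons, were counted after seeing the data. Alternatives were a score of at least 100, 50% cover, lists of equal size, flanks of 10 kb, called kb per 100 Mb, numbers of peaks, each library left out, and a replicate block. Same-letter libraries did not deviate together: correlations ran from −0.0191 to 0.0154, with 0 of 15 over 0.1. Ligands and partners outside the 6 genes (HGF, GAS6, PROS1, TYRO3, MERTK, FGFR4, FGF1, FGF9, FGF18, KLB, FRS2 and GAB1) were planned only with an hg19 annotation and were not analysed here.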

Additional observations from a re-analysis of the deposited data

Results flagged for a closer look

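The erlotinib difference in called bases at FGFR1 was not the same in the 2 ALDH fractions. It was 2.72 kb in ALDH-low and 0.00567 kb in ALDH-high cells, a difference of −2.718 kb between fractions (exact permutation test with fraction labels permuted within treatments, p = 0.035, 6 loci examined and no p adjusted over them). All 3 ALDH-low erlotinib libraries, and no ALDH-high erlotinib library, lay above every DMSO library. Per 100 Mb called the difference was −5.59 kb (exact permutation p = 0.075). At MET the same difference was 2.44 kb (exact permutation p = 0.075) and 8.69 kb per 100 Mb called (exact permutation p = 0.015). These permutations assume no fraction difference under either treatment, so none of these p-values is specific to unequal erlotinib differences. Total called bases also differed between the lists, and their part in these results was not tested.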

How the results depend on the processing

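Read depth is unknown and calls are yes or no, so a missing peak sets no limit on openness, and a count of 1 to 5 regions moves easily.

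In lists of equal size, ALDH-low erlotinib gains fell to 2 and losses rose to 2, ALDH-high erlotinib gains were 1, DTP losses 0 and losses between fractions under erlotinib 0. Called-kb differences there were 0.223 (MET, DTP), 1.79 (AXL, DTP), 0 (FGFR2, DTP), 0.596 (FGFR3, erlotinib, exact permutation p = 0.115) and −0.308 (MET, fractions). With a score of at least 100, DTP losses were 1, ALDH-low gains 2, and gains and losses between fractions under erlotinib 0 and 0. Differences were then 1.04 kb (MET, DTP), 2.03 (AXL, DTP), −0.0477 (FGF2, DTP), 0.584 (FGF2, erlotinib) and 0.204 (FGFR1, fractions). With 50% cover, ALDH-low gains were 2 and losses between fractions under erlotinib 0. With flanks of 10 kb, gains were 1 in DTP, 2 in ALDH-low, 1 in ALDH-high and 0 between fractions under erlotinib. Differences were then −0.226 kb (MET, DTP), 0.676 (AXL, DTP), −1.10 (FGF2, DTP), 0.284 (FGFR3, erlotinib) and −0.764 (FGF2, erlotinib). Per 100 Mb called, they were −1.41 (MET, erlotinib), −3.48 (FGF2, erlotinib), −0.444 (MET, fractions) and −3.37 kb (FGFR1, fractions, exact permutation p = 0.045). Counted as peaks, the fractions differed by 0.167 at AXL and by −1.67 at FGFR1 (exact permutation p = 0.03). The replicate block ended the AXL erlotinib call (2.76 kb, exact permutation p = 0.0625) and changed no other call. Adjusted only over regions able to reach an exact p under 0.05, 2 members passed for erlotinib. In these cases the cause was not tested.

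Leaving out 1 library at a time, DTP gains ranged from 3 to 5 (5 without DTP a), ALDH-low erlotinib gains from 4 to 11 (11 without ALDH-low erlotinib c) and losses from 1 to 3 (2 without ALDH-low erlotinib b, 3 without ALDH-low DMSO b). ALDH-high erlotinib losses ranged from 0 to 1 (1 without ALDH-high DMSO a, b or c), and gains and losses between fractions under DMSO from 0 to 1 (gain: without ALDH-high DMSO b, losses: without ALDH-high DMSO a, ALDH-low DMSO b or c). Gains between fractions under erlotinib ranged from 1 to 3 (3 without ALDH-high erlotinib b or ALDH-low erlotinib a). The erlotinib difference ranged from 1.22 to 1.82 kb at MET (call gained without ALDH-low erlotinib c), 1.16 to 1.61 at FGFR1 (call gained without ALDH-high erlotinib b or ALDH-high DMSO b) and −0.266 to 0.130 at FGF2 (sign changed without ALDH-low erlotinib c or ALDH-high DMSO b). The fraction difference ranged from −0.499 to 0.298 at AXL (sign changed without erlotinib library b of either fraction) and −1.35 to −0.899 at FGFR1 (call gained without ALDH-low DMSO b). Differences that passed no test also moved by over 1.5 times. The fraction difference ranged from 0.339 (without ALDH-high DMSO a) to 0.926 kb at MET, 0.128 (without ALDH-high DMSO c) to 0.472 (without ALDH-high DMSO b) at FGFR3 and 0.228 (without ALDH-high DMSO b) to 0.625 at FGF2. The DTP difference ranged from −1.69 (without DTP c) to −0.673 (without DTP a) at MET, −1.43 (without PC9 a) to −0.599 (without DTP c) at FGFR1 and 0.0517 (without DTP b) to 0.894 (without DTP c) at FGFR3.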
